A study of Mus musculus with 3 samples.

Results

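Macrophages of the flexor digitorum longus (FDL) tendon that carried high levels of major histocompatibility complex (MHC) class II transcripts were described in 3 libraries of single-cell RNA sequencing (scRNAseq). A macrophage was a cell with at least 10 unique molecular identifiers (UMIs, 1 per captured transcript molecule) of the complement genes *C1qa*, *C1qb* and *C1qc* together. It also had at least 5 UMIs of the myeloid adaptor genes *Tyrobp* and *Fcer1g* and fewer than 10 UMIs of the tendon cell genes *Tnmd*, *Fmod*, *Kera* and *Cilp2*. Class II high macrophages were those with at least 20 UMIs of *H2-Aa* (ENSMUSG00000036594), *H2-Ab1* (ENSMUSG00000073421) and *H2-Eb1* (ENSMUSG00000060586), which encode the chains of the class II molecules, and all other macrophages are called class II low. The rule found 155 class II high cells among 1987 macrophages and 19709 cells in all, with 17 in the library named 6 M WT (WT below), 99 in that named 6 M DTR (DTR) and 39 in that named 21 M B6 (B6). Since the cells were chosen by their measured class II UMIs, levels of class II high against low macrophages are given as a description. Sets of 3 values follow the order WT, DTR, B6 where no library is named.

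The labels name C57BL/6J as the strain in all 3 groups. Each library held the cells of 16 pooled FDL tendons, with cells called female and cells called male in each. In DTR (Scx-Cre+; DTR F/+) the *Scleraxis* promoter drives Cre, so that the diphtheria toxin receptor is made in *Scleraxis*-lineage cells, which also contribute to tissues other than tendon. Their WT littermates (Scx-Cre-; DTR F/+) carried the same receptor allele without Cre, and both received 5 daily injections of diphtheria toxin (DT) into the hind paw at 3 months of age, the age the labels give, with harvest at 6 months. The B6 mice received no injection and were wild type animals aged 21 months. Tendons were digested for 120 min in WT and for 90 min in the other libraries. With 1 library per group, genotype, treatment, age, mix of sexes and digestion time cannot be told apart from the library. No difference was tested, and all intervals are 95% intervals that cover counting error only.

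The deposited tables held 15536, 16099 and 12273 barcodes with 148149903, 123918145 and 92707026 UMIs for WT, DTR and B6. Barcodes were kept if they held between 1000 and 5000 genes and mitochondrial UMIs made up no more than 10%, which left 8357, 6554 and 4798 cells with medians of 13008, 12328 and 12914 UMIs. Over 10% mitochondrial UMIs were found in 27.6% of barcodes in WT, 43.1% in DTR and 56.5% in B6. Between 13 and 15 kept barcodes were shared by each pair of libraries. Class II high macrophages had medians of 18110, 13759 and 13849 UMIs per cell in WT, DTR and B6, against 16434, 13234 and 13906 in class II low macrophages. Their median mitochondrial share was 2.30%, 2.69% and 5.16%, so the B6 cells held more mitochondrial UMIs, as did the class II low macrophages of that library at 5.77%.

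MHC class II molecules present peptides from material taken up by the cell to CD4+ T cells. The alpha and beta chains are assembled with the invariant chain CD74, which is cut by lysosomal proteases and exchanged for a peptide with the help of H2-DM. Transcription of these genes depends on the coactivator CIITA, which binds factors seated on the X and Y boxes of the class II promoters. In many tissues resident macrophages fall into a population with high LYVE1 and low class II and one with high class II, of which the second is replaced more by CCR2+ monocytes.

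Of 15 genes searched, which comprised class II genes, their coactivator *Ciita* and the X box factor genes *Rfx5*, *Rfxap* and *Rfxank*, 10 had promoters in the RefSeq table (GRCm38.p6), among them 8 class II genes. Each promoter was given as 250 bases before and 50 after a transcription start. They are shown for 3 of these genes from 120 to 21 bases before the start, the stretch that held their Y boxes. Capitals mark the Y box (CCAAT, or ATTGG on the other strand) and, in *H2-DMb1*, the X box. The windows are chr17:34287844-34287943 on the minus strand for *H2-Aa*, chr17:34305747-34305846 on the plus strand for *H2-Eb1* and chr17:34153071-34153170 on the plus strand for *H2-DMb1*.
H2-Aa: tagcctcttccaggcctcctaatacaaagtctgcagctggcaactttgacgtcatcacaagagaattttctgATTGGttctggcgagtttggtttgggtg
H2-Eb1: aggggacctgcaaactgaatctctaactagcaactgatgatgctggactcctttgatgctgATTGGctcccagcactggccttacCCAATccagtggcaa
H2-DMb1: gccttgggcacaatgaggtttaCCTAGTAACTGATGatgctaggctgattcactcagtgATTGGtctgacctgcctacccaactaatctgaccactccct
The Y box on the other strand began 48 bases before the start of *H2-Aa*, 59 before that of *H2-Eb1* and 61 before that of *H2-DMb1*. The 10 genes had 11 promoters, of which 10 held a Y box on either strand, a sequence found in 37.4% of the 32851 promoters in the table. Of the 10 genes *H2-DMb1* alone held an exact match to the X box consensus, from 98 to 85 bases before the start, and 0.0609% of all promoters did. These matches describe the sequence and were not measured as binding sites.

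Several genes that mark macrophages but were not in the rule were detected in most class II high cells. *Lyz2*, the gene of lysozyme, was detected in all 155 cells at 6726, 8911 and 6717 UMIs per 1000000 UMIs summed over the class (CPM). The receptor for colony stimulating factor 1, *Csf1r*, had UMIs in 16 of 17, 94 of 99 and 38 of 39 cells. *Adgre1*, which encodes F4/80, was found in 12, 76 and 32 cells at 130, 138 and 147 CPM, and *Cd68* in 16, 91 and 36 cells at 322, 322 and 399 CPM. The mannose receptor gene *Mrc1* was found in 13, 79 and 37 cells, but *Mertk*, a receptor for dying cells, in only 1, 17 and 9. *Cx3cr1*, another macrophage gene outside the rule, was found in only 3, 38 and 9 cells. Over 14 such genes the median log2 ratio of class II high to low macrophages was −0.89, −0.45 and −0.65, where that of all genes was −0.28, −0.24 and −0.27, so the class held macrophage markers at levels that were mostly below those of class II low cells. In WT the median was 0.0025 without cells holding at least 2 UMIs of genes listed for other leukocytes, which left 4 class II high cells.

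Some defining genes of other leukocytes were at or near 0 in the same cells, though most of these cells held UMIs of other genes listed for such leukocytes, as given below. For T cells *Cd3d*, *Cd3e* and *Trac* were at 0 in WT and at most 4.63 CPM in DTR and 1.75 CPM in B6, while all barcodes of the libraries together held 364, 967 and 263 UMIs of *Cd3e*. The B cell genes *Pax5* and *Ms4a1* and the neutrophil gene *Ly6g* had no UMI in class II high cells, but these genes were scarce throughout, with at most 24 UMIs of any of them over all barcodes of a library, so their 0 says little. The B cell list of 10 genes, which also held *Ighm*, summed to 15.5, 55.5 and 40.2 CPM, against 40.9, 76.5 and 63.6 CPM in class II low macrophages. Yet *Il7r*, the interleukin 7 receptor and the most abundant gene of the T and NK cell list, had UMIs in 12 of 17, 72 of 99 and 20 of 39 class II high cells, at 480, 305 and 206 CPM. That list of 12 genes summed to 510, 366 and 243 CPM, against 31.8, 92.5 and 15.1 CPM in class II low macrophages, with 10, 1 and 9 of its genes at 0 in the class II high cells. Tenocyte genes summed to less in class II high than in low macrophages, at 520 against 838 CPM in WT, 1207 against 1458 in DTR and 367 against 572 in B6. *Spp1*, which macrophages also express, was the most abundant tenocyte list gene in WT, DTR and B6, at 176, 893 and 189 CPM.

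Dendritic cells also present antigen on class II and were compared by their own genes. *Flt3*, the growth factor receptor of dendritic cells, was at 6.19, 15.2 and 8.74 CPM in class II high macrophages, *Zbtb46* at 18.6, 5.95 and 3.50 CPM, and *Fscn1*, with 1103, 1065 and 606 UMIs over all barcodes, had none in these cells. The list of 14 dendritic cell genes summed to 241, 856 and 201 CPM against 24.5, 28.3 and 83.5 CPM in class II low macrophages, mostly through the chemokine gene *Ccl17*. Of 6 of its genes measured in each library 5 were at least 1.5-fold higher in class II high than in low macrophages of all 3 libraries (*Flt3*, *Cd209a*, *Ccl22*, *Ccl17* and *Ccr7*), where 3.02% of 8510 genes with at least 5 CPM were, and the list medians were 4.38, 5.56 and 3.04 (log2). Of its genes 6, 3 and 5 were at 0 in the class II high cells. Some of the 5 calls rested on few cells. *Flt3* and *Ccr7* had UMIs in 1 class II high cell each in WT, and *Ccr7* in 1 in B6. The intervals of *Flt3* in WT (0.595 to 27.3) and of *Cd209a* in B6 (0.857 to 6.38) included 1. With leading cells left out, *Ccl22* was no longer higher in B6 (log2 0). For comparison, 122 kept cells of the 3 libraries had at least 20 class II UMIs and passed the rule for macrophages but for having fewer than 10 *C1q* UMIs. These held 54.8 CPM of *Flt3*, 43.8 of *Zbtb46* and 455 of *Ccr7*, against 11.3, 8.19 and 23.02 CPM in macrophages with at least 40 class II UMIs, whose *Csf1r* was at 420 rather than 111 CPM. Several genes described below as higher in class II high macrophages were at still higher levels in these other cells, with *Plbd1* at 315 against 86.5 CPM, *Mgl2* at 865 against 269.6, *Ccl17* at 1935 against 635 and *Il1b* at 4919 against 3784. By library *Il1b* was at 5426 against 4264 CPM in WT, 4802 against 4738 in DTR and 4750 against 1064 in B6. Its levels were close in DTR. The genes named thus did not set class II high macrophages apart from such cells. Scrublet, which compares cells with simulated doublets, marked none of the class II high cells, and 1, 3 and 3 of them were among the 5% of cells with the highest scores. It marked too few cells of any library to be relied on, and the part of doublets in these levels was not tested.

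Class II high cells made up 3.39% (1.99 to 5.38, exact binomial interval) of macrophages in WT, 9.57% (7.84 to 11.5) in DTR and 8.65% (6.22 to 11.6) in B6. The share was 2.82 times as high in DTR as in WT and 2.55 times as high in B6, and the intervals of DTR and B6 overlapped each other but not that of WT. After every cell was thinned to 5000 UMIs, with a threshold of 8 class II UMIs, the shares were 3.49%, 10.3% and 9.11%. Macrophages as a whole were 5.99% of kept cells in WT, 15.8% in DTR and 9.40% in B6, and fewer cells of other types cannot be told apart from more macrophages in such shares. Class II high cells were 0.203%, 1.51% and 0.813% of kept cells. By sex, called from X-inactivation and Y-linked transcripts of each cell, the share among macrophages called female was 3% (1.38 to 5.62), 11.7% (8.51 to 15.6) and 10.5% (7.07 to 14.97). Among those called male it was 3.57% (1.17 to 8.14), 8.82% (6.51 to 11.6) and 3.79% (1.24 to 8.62), from 5 of 140 cells in WT, 45 of 510 in DTR and 5 of 132 in B6. The intervals of both sexes overlapped in each library, and a difference between the sexes was not tested. The mix of sexes differed between libraries. Cells called female were 60.1%, 32.2% and 55.6% of class II low macrophages and 52.9%, 40.4% and 69.2% of class II high ones.

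Within the class, class II UMIs per cell spanned a wide range, from 28 to 756 in WT, 20 to 788 in DTR and 20 to 727 in B6. Medians were 255, 73 and 159 UMIs. Cells with 200 or more UMIs numbered 9 of 17 in WT, 28 of 99 in DTR and 15 of 39 in B6. In DTR 70, 22 and 8 macrophages had 5 to 9, 10 to 14 and 15 to 19 UMIs, and 8, 14 and 37 had 20 to 24, 25 to 39 and 40 to 99, so the threshold divided a continuous range there. In WT the same steps below the threshold held 11, 2 and 0 macrophages. At least 1 class II UMI was found in 35.5% of macrophages in WT, 55.0% in DTR and 35.5% in B6, and in 3.64%, 7.66% and 6.43% of tenocytes, which should lack these genes and had medians of 13168, 12786 and 11563 UMIs. A count of 20 was reached by 4 of 5327 tenocytes in WT, 1 of 2807 in DTR and 0 of 1011 in B6, which allows a share of up to 0.364%.

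**Figure D1:**
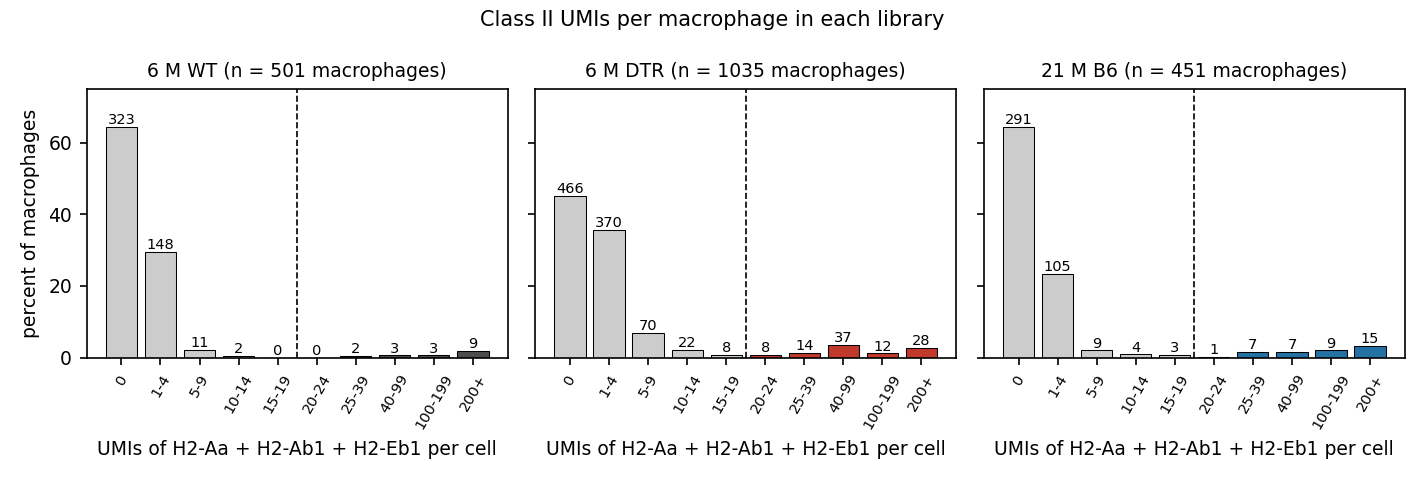
Percent of macrophages (y axis) by UMIs of *H2-Aa*, *H2-Ab1* and *H2-Eb1* per cell (x axis) in each library, with the number of cells over each bar and a dashed line at 20 UMIs. Most macrophages had 0 UMIs in WT (323 of 501) and B6 (291 of 451), while DTR had 70, 22 and 8 cells in the 3 bins from 5 to 19 UMIs below the line.

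The partners of the class II chains followed the genes of the rule. *Cd74* (ENSMUSG00000024610), the invariant chain, was at 18373, 13373 and 14295 CPM in class II high macrophages of WT, DTR and B6, against 53.3, 153 and 86.9 CPM in class II low ones. *H2-DMb1* was 30.3-fold (24.2 to 37.9), 16.4-fold (14.3 to 18.9) and 16.7-fold (13.3 to 21.1) higher, and *H2-DMa*, the other chain of the peptide exchange factor, 16.98-fold (13.3 to 21.5), 5.68-fold (4.96 to 6.49) and 14.2-fold (11.4 to 17.7). Both groups of cells were therefore far apart in these 3 genes, and least so for *H2-DMa* in DTR, where class II low macrophages had the highest level at 42.3 CPM. *Ciita* itself was scarce, with UMIs in 3 of 17, 22 of 99 and 14 of 39 class II high cells at 12.4, 21.8 and 43.7 CPM. *H2-Oa*, whose product dampens H2-DM in B cells, had no UMI in any macrophage and at most 17 over all barcodes of a library. The X box factor genes *Rfx5*, *Rfxap* and *Rfxank* were between 0 and 15.5 CPM in class II high and 1.60 and 18.95 CPM in class II low macrophages.

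Most macrophages near the threshold were of DTR, with 30 of 39 at 10 to 19 class II UMIs and 22 of 32 at 20 to 39, so levels summed over the libraries there are mainly those of DTR. Over the 3 libraries *Cd74* was at 72.4 CPM in 1793 macrophages below 10 class II UMIs, 2017 CPM in 39 macrophages with 10 to 19, 3768 CPM in 32 with 20 to 39 and 16697 CPM in 123 with 40 or more. *Lyve1* was at 1085, 237, 183 and 70.6 CPM in the same order. Within DTR, from fewer than 10 to 40 or more, *Cd74* was at 101, 1952, 3653 and 15921 CPM and *Lyve1* at 699, 281, 76.4 and 6.67 CPM, so that levels just inside and just outside the threshold lay between the extremes. *Ccr2* was at 86.8, 325, 162 and 227 CPM in the same macrophages of DTR, but at 42.7 CPM in the 7 with 10 to 19 class II UMIs of B6, against 236 CPM with 40 or more. *Il1b* stood at 492 and 509 CPM below the threshold and at 2800 and 4738 CPM above it in DTR, while the 8 macrophages of B6 with 20 to 39 class II UMIs held none.

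Across all genes with at least 50 CPM in either class of every library, 65 of 2619 (2.48%) were at least 2-fold higher in class II high macrophages in all 3 libraries and 66 (2.52%) at least 2-fold lower. With scaling by the trimmed mean of M values (TMM) 38 were lower, without cells holding narrower markers of other cell types 41 were higher, and without cells holding at least 2 UMIs of genes listed for other leukocytes 14 were higher and 23 lower. Ranked by the smallest ratio over the 3 libraries, the first genes, apart from those of the rule, were *Ccl17*, *Plbd1*, *Cd74*, *Serpinb2*, *H2-DMb1*, *Ccl5*, *Cytip*, *Flrt3*, *Csf2rb* and *Ptgs2*. *Plbd1*, a phospholipase B-like gene, was at 108, 68.1 and 56.0 CPM in class II high and at 0.486, 0.684 and 0.329 CPM in class II low macrophages of WT, DTR and B6. It was found in 10 of 17, 29 of 99 and 15 of 39 class II high cells, and was at 327.5, 306 and 319 CPM in the cells with as many class II UMIs but fewer than 10 of *C1q*. *Ccl17*, a chemokine that attracts T cells through CCR4, was first by this rank but had few cells behind its ratios. Its UMIs came from 4, 13 and 3 class II high cells, and 1 cell held 34.1%, 62.8% and 95.5% of them. Against 0 UMIs in class II low macrophages of WT it was at least 348-fold higher, by the limit of 3 UMIs over the group, and 759-fold (442 to 1429) and 351-fold (93.5 to 2961) higher in the other libraries.

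Of 7 measured genes of monocytes and monocyte-derived cells 2 were at least 1.5-fold higher in all 3 libraries (*Ccr2* and *Napsa*) and none lower, against 3.02% of all genes higher, and the median log2 ratio of the list was −0.21, −0.080 and 0.80. The median in B6 turned to −0.11 without cells holding other leukocytes' UMIs. *S100a4*, a calcium-binding protein gene of the list, was at 3805, 3949 and 4407 CPM against 4398, 4428 and 2718 CPM and did not keep 1 direction. The common beta chain of the GM-CSF and interleukin 3 receptors, *Csf2rb*, was 12.1-fold (8.63 to 16.8) higher in WT, 6.99-fold (5.83 to 8.37) in DTR and 10.6-fold (7.77 to 14.6) in B6. *Ccr2* (ENSMUSG00000049103), the receptor by which monocytes leave blood and marrow, was at 285, 214 and 220 CPM in class II high macrophages, against 18.1, 93.4 and 16.8 CPM in class II low ones. Its ratio was thus 15.7 (12.0 to 20.5) in WT, 2.29 (2.02 to 2.59) in DTR and 13.2 (10.1 to 17.2) in B6. The lower ratio in DTR went with a higher level in the class II low macrophages of that library, while levels in class II high macrophages lay within 1.5-fold of each other. *Napsa*, an aspartic protease, was at 152, 102 and 70.0 CPM against 10.2, 40.5 and 3.61 CPM, a similar order. *Ly6c2*, a gene of circulating monocytes, was nearly absent, at 3.09, 3.97 and 1.75 CPM.

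The lectin gene *Mgl2* was 16.9-fold (13.8 to 20.6) higher in WT, 10.8-fold (9.04 to 12.99) in DTR and 6.17-fold (5.00 to 7.61) in B6. The integrin gene *Itgax*, which encodes CD11c, was found in 6 of 17, 19 of 99 and 4 of 39 class II high cells, at 43.3, 41.0 and 12.2 CPM against 2.79, 2.43 and 1.81 CPM. *Itgam*, which encodes CD11b, another integrin alpha chain of myeloid cells, was lower in class II high cells, by 2.08-fold, 1.89-fold and 1.70-fold. Of 14 macrophage genes outside the rule 2 were at least 1.5-fold higher in all 3 libraries (*Cd14* and *Aif1*, the latter lower in WT among cells called male, log2 −0.22) and 5 at least 1.5-fold lower, among them *Csf1r*, *Mertk*, *Mrc1* and *Itgam*. By the same measure 257 of the 8510 genes (3.02%) were higher and 819 (9.62%) lower. *Cd14*, a co-receptor for lipopolysaccharide, was at 2633, 2700 and 2067 CPM against 1190, 1207 and 635 CPM. *Csf1r* was 2.02-fold, 1.69-fold and 1.82-fold lower, at 384, 412 and 554 CPM against 774, 696 and 1012 CPM, but was level in WT (log2 0.026) without cells holding other leukocytes' UMIs.

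**Figure D2:**
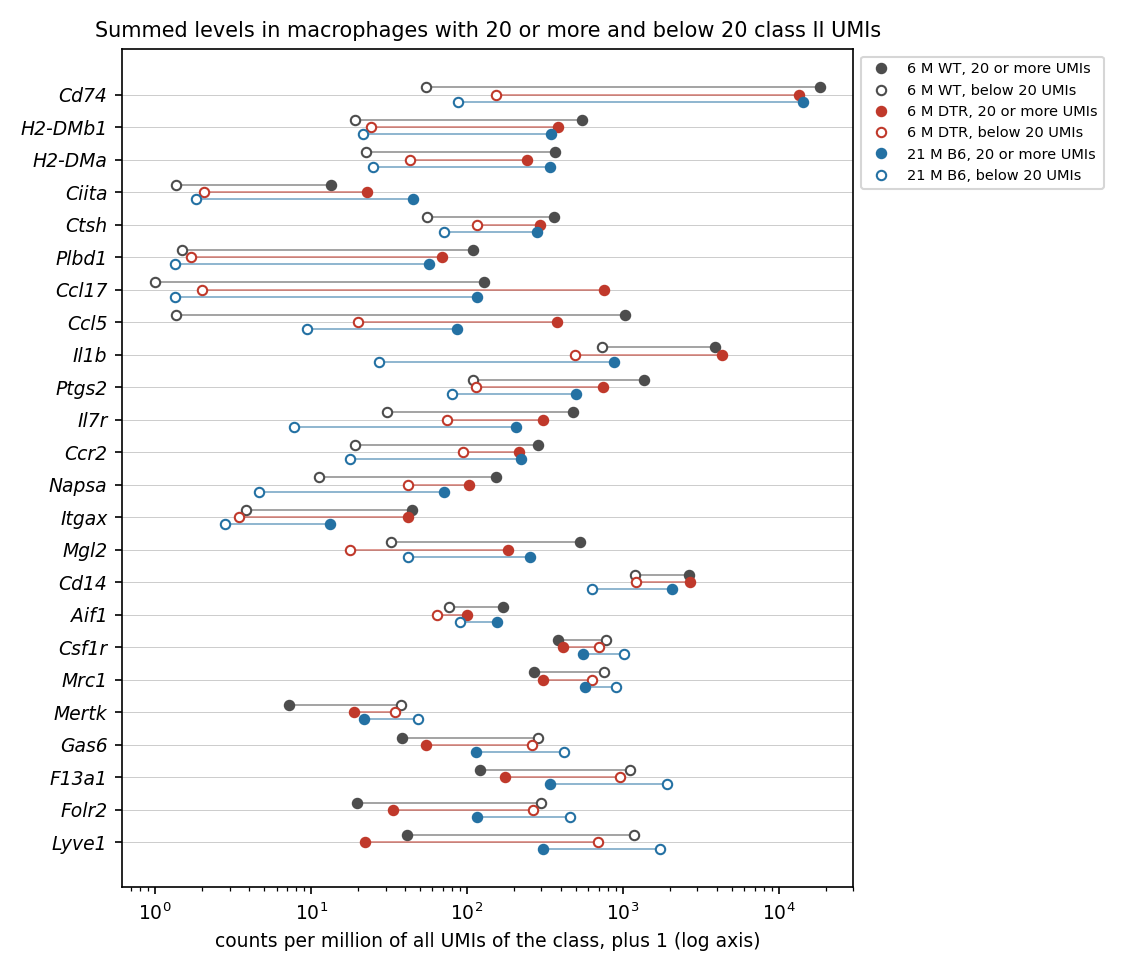
Level of each gene (x axis, CPM plus 1, log axis) in class II high (filled circles) and class II low (open circles) macrophages of each library, joined by a line. Filled circles lie to the right for the genes from *Cd74* to *Aif1*, as for *Cd74* at 18373 against 53.3 CPM in WT, and to the left for those from *Csf1r* to *Lyve1*.

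Genes of LYVE1+ resident macrophages were lower in class II high cells of each library. Of 14 such genes measured 10 were at least 1.5-fold lower in all 3 libraries and none higher, against 9.62% and 3.02% of all genes. The median log2 ratio of the list was −1.95 in WT, −1.55 in DTR and −2.04 in B6, where that of all genes was −0.28, −0.24 and −0.27. *Lyve1* (ENSMUSG00000030787), a hyaluronan receptor, was 29.4-fold lower in WT, at 40.2 against 1183 CPM, and 32.5-fold lower in DTR, at 21.2 against 688 CPM. In B6 it was 5.65-fold lower, at 308 against 1739 CPM. In WT 1 cell held 84.6% of the *Lyve1* UMIs of the class, which came from 3 cells.

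The folate receptor gene *Folr2* was 16.0-fold, 8.16-fold and 3.96-fold lower in WT, DTR and B6, at 18.6, 32.4 and 115 CPM in the class II high cells. *F13a1*, the gene of coagulation factor XIII A, was 9.16-fold, 5.54-fold and 5.60-fold lower. *Gas6*, a bridge between dying cells and the receptor MERTK, was 7.64-fold, 4.87-fold and 3.68-fold lower, and *Mertk* itself had UMIs in only 1 of 17, 17 of 99 and 9 of 39 class II high cells. *Vsig4*, a complement receptor, had no UMI in class II high cells of WT and DTR, which put it at least 12.0-fold and 14.3-fold lower, and was 19.6-fold lower in B6. Across these genes the distance between the classes was thus smallest in B6 for *Lyve1*, *Folr2* and *Gas6*. For *F13a1* DTR and B6 were close, and for *Vsig4* the bounds of WT and DTR cannot be ranked against the value of B6. Within the class II high cells of DTR and B6 *F13a1* was higher near the threshold. In DTR it was at 484 CPM in 22 cells with 20 to 39 class II UMIs and 91.8 CPM in 77 with 40 or more. In B6 it was at 702 CPM in 8 and 261 CPM in 31 such cells. WT went the other way, at 0 CPM in 2 and 137 CPM in 15 such cells. Each library had its highest level in macrophages with fewer than 10 class II UMIs, at 1109, 971.5 and 1927 CPM. *Timd4*, another gene of the list, had UMIs in 4, 3 and 4 class II high cells and went in opposite directions. It was at 61.9 against 22.1 CPM in WT and was higher in DTR as well (log2 2.755), but at 12.2 against 73.6 CPM in B6.

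The share of cells with at least 1 UMI was compared after thinning every cell to 5000 UMIs. *Lyve1* was detected in 5.88% (0.149 to 28.7), 6.06% (2.26 to 12.7) and 30.8% (17.02 to 47.6) of class II high macrophages of WT, DTR and B6. In class II low macrophages the shares were 70.6%, 50% and 91.3%, and in tenocytes 0.846%, 0.990% and 1.14%. *Ccr2* was detected in 47.1% (22.98 to 72.2), 39.4% (29.7 to 49.7) and 74.4% (57.9 to 87.0) of class II high macrophages, against 4.47%, 17.1% and 4.25% of class II low macrophages and 0.135%, 0.550% and 0.207% of tenocytes. Class II high macrophages of B6 therefore had the highest shares for both genes, with intervals apart from those of DTR and overlapping those of WT. Without thinning *Lyve1* was detected in 17.6%, 9.09% and 33.3% and *Ccr2* in 76.5%, 53.5% and 82.1% of class II high cells.

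When each thinned cell was placed by both systems, *Ccr2* without *Lyve1* or *Folr2* was found in 6 of 17 class II high cells of WT, 35 of 99 of DTR and 19 of 39 of B6. *Lyve1* or *Folr2* without *Ccr2* was found in 0, 14 and 6 cells, both systems in 2, 4 and 10 cells, and neither in 9, 46 and 4 cells. Among class II low macrophages *Lyve1* or *Folr2* without *Ccr2* was the main state, in 377 of 470, 528 of 902 and 370 of 400 thinned cells. Class II high cells with both were 10 of 39 in B6, where only 13 of 400 class II low cells had both. In WT these numbers were 2 of 17 and 10 of 470. DTR went the other way, with 4 of 99 class II high and 91 of 902 class II low cells. Absence of a UMI at this depth does not show that a cell lacked the transcript.

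**Figure D3:**
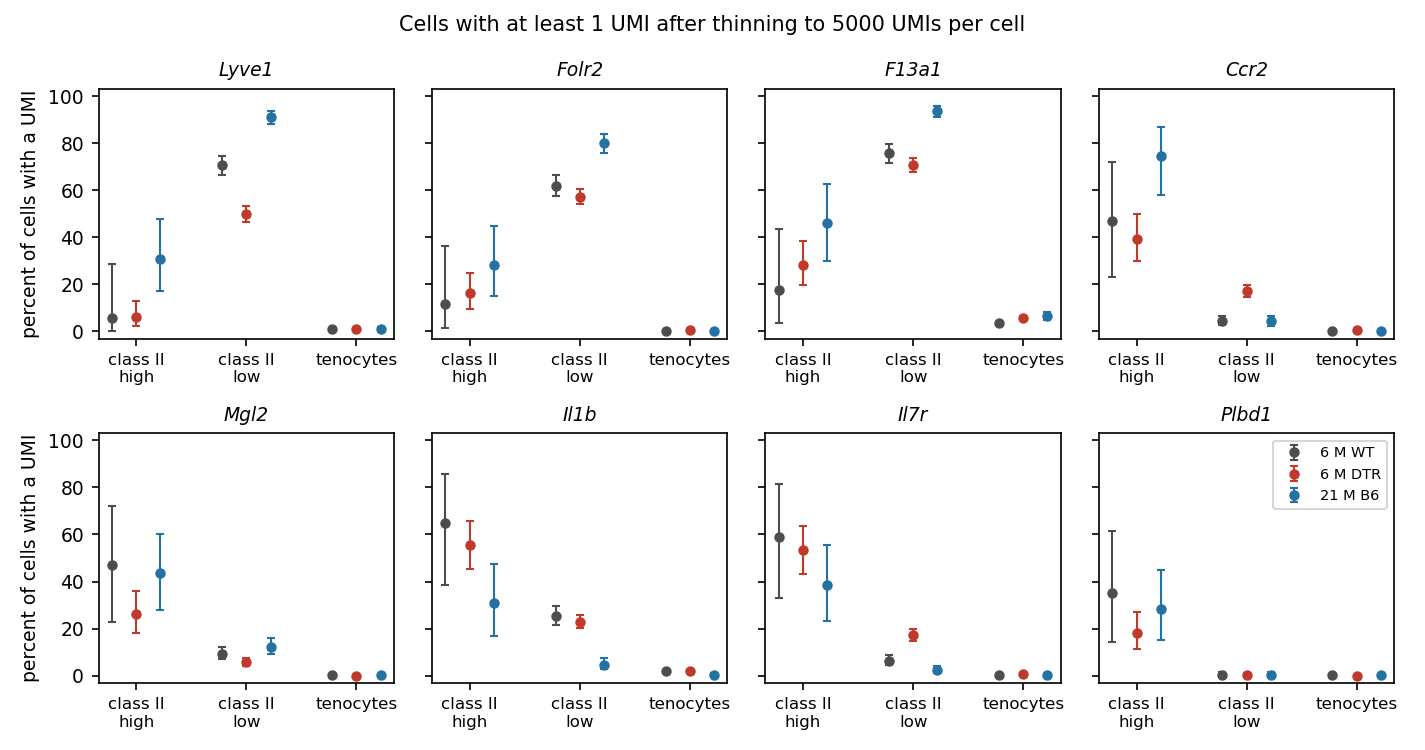
Percent of cells with at least 1 UMI after thinning to 5000 UMIs (y axis, exact 95% binomial intervals) in class II high and low macrophages and tenocytes of each library. *Lyve1*, *Folr2* and *F13a1* were detected in fewer class II high than low macrophages, and *Ccr2*, *Mgl2*, *Il1b*, *Il7r* and *Plbd1* in more, with *Plbd1* in 35.3%, 18.2% and 28.2% of class II high cells.

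Genes that act on T cells beside the class II molecules were higher in part. Of 10 costimulation and T cell contact genes measured 3 were at least 1.5-fold higher in class II high cells of all 3 libraries and 1 lower, where 3.02% of all genes were higher and 9.62% lower. *Cd40*, the receptor for T cell CD40 ligand, was 1.93-fold (1.42 to 2.56), 2.37-fold (2.07 to 2.70) and 1.65-fold (1.26 to 2.12) higher, though not in DTR without cells holding other leukocytes' UMIs (log2 −0.22). *Icam1*, an adhesion ligand for T cells, was 2.66-fold, 2.20-fold and 2.75-fold higher, and *Cd274*, which encodes the inhibitory ligand PD-L1, 3.11-fold (0.958 to 7.85), 3.63-fold (2.84 to 4.61) and 2.78-fold (1.53 to 4.81). The interval of *Cd274* in WT included 1. *Vsir*, another inhibitory gene, was the one lower in each library. *Cd86*, a ligand of CD28, did not keep 1 direction, at 263, 220 and 133 CPM against 207, 138 and 189 CPM.

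Lysosomal genes went in both directions. Of 15 lysosomal genes 2 were higher in all 3 libraries (*Ctsh* and *Ctsz*) and 3 lower (*Ctsd*, *Lgmn* and *Lamp2*), against 3.02% and 9.62% of all genes. *Ctsh*, a lysosomal cysteine protease, was at 359, 294 and 282 CPM against 53.9, 115 and 70.0 CPM. *Ctss*, the protease that cuts the invariant chain, was at 1027, 1560 and 1362 CPM against 1114, 1622 and 1434 CPM, so its levels were close in both classes. Of 12 class I presentation genes only *H2-Q7* was at least 1.5-fold higher in all 3 libraries.

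Several inflammatory genes were higher in class II high macrophages. Of 10 cytokine and enzyme genes measured 4 were at least 1.5-fold higher in all 3 libraries (*Il1b*, *Il10*, *Ptgs2* and *Inhba*) and none lower, against 3.02% and 9.62% of all genes, and the median log2 ratio of the list was 0.52, 1.07 and 1.44. *Il1b* (ENSMUSG00000027398), interleukin 1 beta, was at 3864, 4335 and 876 CPM in WT, DTR and B6 against 736, 492 and 26.1 CPM in class II low cells. The ratio was 5.25 (4.93 to 5.58), 8.81 (8.51 to 9.11) and 33.5 (28.0 to 40.4), largest in B6, where both classes had their lowest levels. In the 4 class II high cells of WT without other leukocytes' UMIs *Il1b* was lower instead (log2 −0.38). It was detected in 64.7%, 55.6% and 30.8% of thinned class II high cells, against 25.3%, 22.8% and 4.75% of class II low cells and 1.88%, 1.98% and 0.414% of tenocytes.

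*Il10*, an anti-inflammatory cytokine, was also higher, by 2.97-fold (1.98 to 4.32), 7-fold (6.29 to 7.78) and 8.27-fold (6.56 to 10.4), with UMIs in 5 of 17, 31 of 99 and 14 of 39 cells, but was lower in WT among cells called female (log2 −0.37). The prostaglandin synthase gene *Ptgs2* was 12.7-fold (11.3 to 14.3), 6.60-fold (6.11 to 7.14) and 6.32-fold (5.44 to 7.34) higher, but was lower in WT (log2 −0.66) in the 4 cells without other leukocytes' UMIs. *Inhba* rested on 1 cell in both WT and B6. *Tnf* was at 4037, 3126 and 1343 CPM against 3760, 1868 and 1511 CPM and did not keep 1 direction.

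Chemokine genes were higher in part, with 5 of 12 at least 1.5-fold higher in all 3 libraries, where 3.02% of all genes were. *Cxcl2*, which attracts neutrophils, was the most abundant, at 49332, 44476 and 21944 CPM against 31245, 29198 and 11898 CPM. *Cxcl3* was 10.9-fold (10.0 to 11.8), 4.96-fold (4.72 to 5.22) and 15.3-fold (13.3 to 17.7) higher, *Cxcl1* 1.56-fold, 1.65-fold and 2.43-fold, and *Cxcl16* 2.11-fold, 2.83-fold and 2.31-fold. Without cells holding other leukocytes' UMIs *Cxcl3* was lower in DTR (log2 −1.85) and *Cxcl1* in B6 (log2 −1.51). *Ccl5*, which attracts T cells, was at 1033, 375 and 85.7 CPM against 0.364, 19.1 and 8.38 CPM, with UMIs in 5, 16 and 5 class II high cells, but was lower in DTR among cells called male (log2 −0.93). Cells with *Ccl5* numbered 3, 16 and 7 in the class II low macrophages, so that few cells of either class held it. The monocyte chemokine *Ccl2* was at 7679, 3436 and 3935 CPM against 6789, 4300 and 3411 CPM.

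Interferon-stimulated genes were higher for a few members. Of 7 type I interferon response genes measured 3 were at least 1.5-fold higher in all 3 libraries, and of 9 interferon gamma response genes 2 were, against 3.02% of all genes. *Isg15*, a ubiquitin-like modifier, was 12.0-fold (10.4 to 13.8) higher in WT, 4.31-fold (3.91 to 4.74) in DTR and 1.58-fold (1.28 to 1.94) in B6. Without cells holding other leukocytes' UMIs it was lower in DTR (log2 −0.75). *Oasl1* was at 455, 141 and 114 CPM against 15.2, 24.5 and 31.5 CPM. The ratios of both genes descended from WT over DTR to B6, while the level in class II low cells ascended. For *Oasl1* the level in class II high cells descended as well. *Cxcl10*, a ligand of CXCR3, was 6.60-fold, 3.60-fold and 2.06-fold higher, but 62.8% of its UMIs in B6 came from 1 cell, without which it was lower (log2 −0.16).

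Growth factor and matrix genes were mixed, with 3 of 14 higher (*Areg*, *Ereg* and *Mmp12*) and 3 lower (*Timp2*, *Pdgfc* and *Has1*) in all 3 libraries, against 3.02% and 9.62% of all genes. *Mmp12* rested on 1 cell in WT, where it was 1.90-fold (0.598 to 4.66) higher, and on 1 cell in B6. *Areg*, a ligand of the EGF receptor, was 13.7-fold (12.3 to 15.2), 6.02-fold (5.58 to 6.49) and 2.15-fold (1.64 to 2.77) higher, with UMIs in 9 of 17, 42 of 99 and 11 of 39 cells. It was lower in WT (log2 −1.48) without cells holding other leukocytes' UMIs. *Timp2*, an inhibitor of matrix metalloproteinases, was at 303, 436 and 371 CPM against 925, 895 and 1273 CPM. Of 14 lipid handling genes only *Lgals3*, the galectin 3 gene, was higher in all 3 libraries, by 2.18-fold, 1.82-fold and 3.02-fold. Of 11 phagocytosis and scavenger receptor genes 4 were lower (*Mertk*, *Stab1*, *Msr1* and *Fcgrt*) and none higher, with the same shares of all genes.

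Some genes known to respond to stress during cell isolation were lower in class II high cells. Of 14 immediate early genes 4 were at least 1.5-fold lower in all 3 libraries (*Jun*, *Egr1*, *Egr3* and *Ier2*), and of 13 heat shock genes 3 were (*Hspa1a*, *Hspa1b* and *Hspb1*), where 9.62% of all genes were. *Jun* was 4.09-fold lower in WT, 1.93-fold in DTR and 5.34-fold in B6, and *Hspa1a*, an inducible chaperone, 2.99-fold, 1.90-fold and 2.80-fold. List medians were close to those of all genes for heat shock, at −0.30, −0.18 and −0.34, and lay further down for immediate early genes in WT and B6, at −0.61, −0.25 and −0.59. Scaling by TMM moved the median ratio of all genes by 0.22, 0.18 and 0.16 (log2), so ratios near 1 are not read.

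The 4 genes with the largest ratios in favour of class II low macrophages were those of haemoglobin, a red blood cell product. Of the haemoglobin UMIs in class II low macrophages 99.3%, 94.8% and 99.5% came from 4, 7 and 3 cells that each held 100 or more, and no class II high cell did. Without these cells *Hbb-bs* was at 19.9, 139 and 17 CPM in class II low and 15.5, 130 and 15.7 CPM in class II high macrophages. *Hba-a1* was then at 6.15, 40.2 and 4.499 CPM in class II low and 3.09, 42.3 and 12.2 CPM in class II high macrophages, so its order turned in DTR and B6, at low levels in B6. The next genes in order were *Lyve1*, *F13a1*, *Slco2b1*, *Folr2*, *Gas6* and *Serpinb6a*.

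**Figure D4:**
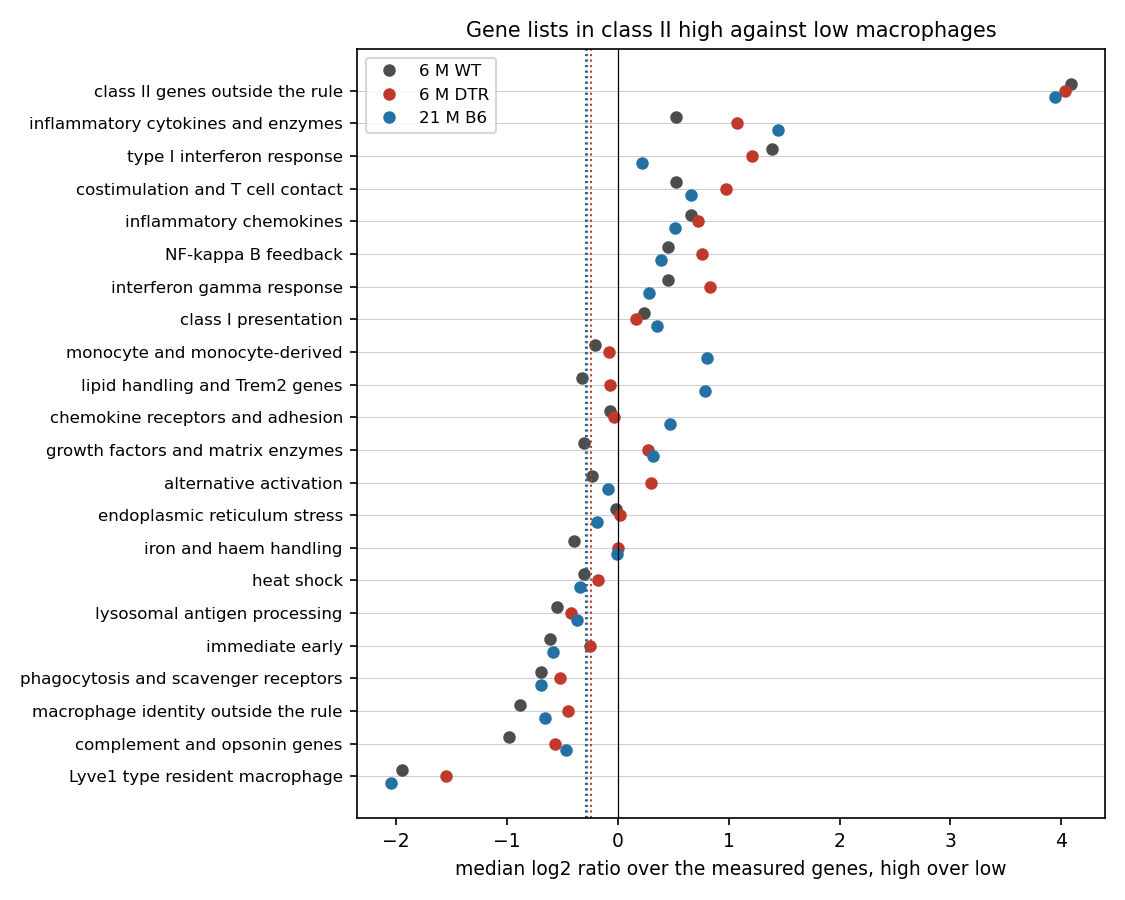
Median log2 ratio of class II high over low macrophages (x axis) for each gene list and library, with dotted lines at the median of all genes in each library. Class II genes outside the rule stand at 4.09, 4.04 and 3.94, and genes of Lyve1 type resident macrophages at −1.95, −1.55 and −2.04.

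Levels in class II high macrophages were then compared between libraries, where the 17 cells of WT limit each ratio. At least 2-fold higher in DTR than in WT were 121 of 2735 genes (4.42%), and 54 (1.97%) were lower. For B6 against WT 183 of 2744 genes (6.67%) were higher and 178 (6.49%) lower, and for B6 against DTR 101 of 2772 (3.64%) were higher and 132 (4.76%) lower. The same counts in class II low macrophages, which were far more numerous, were 0.538% and 0.841%, 2.95% and 3.28%, and 4.10% and 2.86%. The comparisons share libraries and are given side by side.

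The level of *Cd74* differed by less than 1.5-fold between libraries in class II high macrophages. *Cd74* was 0.728 (0.707 to 0.749) times as high in DTR and 0.778 (0.752 to 0.805) times as high in B6 as in WT. In class II low macrophages it was 2.86 (2.58 to 3.18) and 1.63 (1.43 to 1.85) times as high. *Ccr2* behaved likewise in DTR, with ratios to WT of 0.750 (0.593 to 0.956) and 0.774 (0.587 to 1.02) in class II high cells, while in class II low cells of DTR it was 5.16 (4.35 to 6.16) times as high. Class II low macrophages of DTR thus stood nearer to class II high ones than those of the other libraries in both genes, and more of them held 5 or more class II UMIs, as given above.

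First among the genes higher in both DTR and B6 than in WT was *Apoe* (ENSMUSG00000002985), the lipid carrier apolipoprotein E. It was at 142 CPM in WT, 2227 in DTR and 1745 in B6, that is 15.7-fold (11.7 to 21.4) and 12.3-fold (9.12 to 16.9) higher than in WT. UMIs were found in 3 of 17, 55 of 99 and 21 of 39 class II high cells. In WT 1 cell held 71.7% of the *Apoe* UMIs. Class II low macrophages had their lowest level in WT as well, at 420, 1728 and 1829 CPM. After thinning *Apoe* was detected in 17.6%, 51.5% and 41.0% of class II high macrophages, and also in 25.1%, 21.96% and 31.7% of tenocytes. The share in WT was thus no higher than that of the tenocytes and is not read as expression, and the interval of B6 (25.6 to 57.9) held the share of its tenocytes, while that of DTR (41.2 to 61.7) lay above it. Of 14 lipid handling genes 9 were at least 1.5-fold higher and 1 lower in DTR than in WT, and 8 were higher and 1 lower in B6, against 23.1% of all genes higher and 15.9% lower in DTR and 23.3% and 22.6% in B6.

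Most resident macrophage genes were higher in class II high cells of B6. Of 15 genes of Lyve1 type macrophages 9 were at least 1.5-fold higher than in WT and 11 higher than in DTR, with 2 lower in each, and medians of 1.11 and 1.09 (log2). Of all genes 16.5% were that much higher than in DTR and 25% lower. *Lyve1* was 7.65-fold (4.36 to 14.7) higher than in WT and 14.6-fold (9.94 to 21.9) higher than in DTR, and *Folr2* 6.22-fold (2.71 to 17.6) and 3.56-fold (2.42 to 5.27). *Retnla*, a gene of alternative activation, was at 2933 CPM in B6, from 11 of 39 cells, and at 17.2 CPM in DTR, while its 662 CPM in WT came from 1 cell. Under a mitochondrial limit of 5% it was lower in B6 than in WT (log2 −3.42). In class II low macrophages the list was also higher in B6, for 12 and 13 of 15 genes, with medians of 0.90 and 1.34, against 10.8% and 10.9% of all genes higher and 10.2% and 10% lower. The difference thus stood in both classes of macrophages.

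Most inflammatory genes were lower in B6. Of 11 cytokine and enzyme genes 7 were at least 1.5-fold lower than in WT and 7 lower than in DTR, with 2 higher in each. Of all genes 22.6% were that much lower and 23.3% higher than in WT, and 25% lower and 16.5% higher than in DTR. *Il1b* was 4.41-fold lower than in WT and 4.95-fold lower than in DTR in class II high cells, and 28.2-fold and 18.9-fold lower in class II low cells. *Il6* was among those higher, at 89.2 CPM from 14 cells in B6 and 9.28 CPM from 2 cells in WT. Of the chemokines 8 of 12 were lower than in WT and 7 of 13 lower than in DTR, with 3 higher in each. *Ccl5* was 12.1-fold and 4.37-fold lower in class II high cells of B6, whereas in class II low cells it was 22.99-fold (7.44 to 115) higher than in WT, where only 3 UMIs were counted. *Areg* was 13.3-fold lower than in WT and 6.14-fold lower than in DTR, while *Ccl6* was 2.58-fold (1.96 to 3.45) and 6.14-fold (4.96 to 7.65) higher. Without cells that held UMIs of genes listed for other leukocytes, which left 4, 17 and 10 cells, *Il1b* and *Ptgs2* were higher in B6 than in WT (log2 0.60 and 2.29), *Ccl5* was higher than in DTR (log2 3.35), and against DTR the median of the cytokine list was 0.00094 and that of the chemokines 0.73 (log2).

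Of 14 growth factor and matrix enzyme genes 6 were at least 1.5-fold higher and 2 lower in class II high cells of DTR than of WT, and of 14 immediate early genes 6 were higher and 1 lower, against 23.1% and 15.9% of all genes. Osteoclast genes summed to 275 against 111 CPM (3 of 5 higher, 1 lower) and muscle genes to 98.5 against 6.19 CPM (3 of 4 higher). T and NK cell and epitenon genes summed to less, at 366 against 510 and 42.3 against 46.4 CPM. *Ctsk*, a protease gene, had rank 2 among the higher genes. *Vegfa*, the vascular growth factor, was at 9.28 CPM from 3 cells in WT and 75.4 CPM from 27 cells in DTR, an 8.12-fold (2.71 to 39.95) ratio, and was 3.64-fold (2.74 to 4.93) higher in class II low macrophages. *Mmp12*, macrophage elastase, was at 15.5 CPM from 1 cell, 110 CPM from 15 cells and 17.5 CPM from 1 cell in WT, DTR and B6. The immediate early genes *Jun* and *Egr1* were 3.33-fold (2.34 to 4.89) and 3.01-fold (2.29 to 4.02) higher in DTR, and 1.57-fold and 1.24-fold in class II low cells. *Il1b* was at 1.12 (1.06 to 1.19) times its level in WT. *Mucl1* and *Slpi* headed the lower genes through a single WT cell each, and *Prg4* was among the higher genes through 1 cell of DTR that held 88.7% of its UMIs.

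Single genes at the top of these comparisons rested on few cells of WT. *Ifnb1*, interferon beta, was at 217 CPM from 5 cells in WT, of which 1 held 74.3% of the UMIs, against 21.1 CPM from 2 cells in DTR and 17.5 CPM from 4 cells in B6. *Cd93*, a receptor of early myeloid cells, was found in 2 of 17, 42 of 99 and 20 of 39 cells, at 12.4, 76.0 and 129 CPM. *P2rx7*, the ATP-gated channel upstream of interleukin 1 release, was found in 2, 27 and 14 cells and was 5.23-fold and 8.76-fold higher than in WT. Of the comparison of B6 with DTR, which rests on 39 and 99 cells, *Cx3cr1*, the fractalkine receptor, was 7.01-fold lower in B6, and *Il1r2*, a decoy receptor for interleukin 1, was at 12.2 against 88.6 CPM. *Ptgs2* was at 1367, 746 and 497 CPM, in the same order as *Areg*. Without cells holding other leukocytes' UMIs the order turned. *Areg* was then higher in DTR than in WT (log2 3.61) and *Ptgs2* higher in B6 than in WT (log2 2.29).

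Many heat shock genes were higher in B6 in both classes. In class II high cells 8 of 14 were at least 1.5-fold higher than in WT and none lower, against 23.3% and 22.6% of all genes, and 8 higher and 1 lower than in DTR, against 16.5% and 25%. *Hspa1a* was 4.05-fold (2.85 to 5.91) and *Hspa1b* 3.66-fold (2.47 to 5.62) higher. In class II low cells 8 of 14 were higher than in WT, where 10.8% of all genes were, *Hspa1a* by 3.80-fold and *Hspa1b* by 5.33-fold. *Gm42418*, a gene model that overlaps ribosomal RNA sequence, was at 7097, 7307 and 43719 CPM in class II high and 9888, 9124 and 45374 CPM in class II low macrophages of WT, DTR and B6. Mitochondrial UMIs were higher in this library as well, as given above, and the part of RNA quality in the differences of B6 was not tested. Under a mitochondrial limit of 5% *Hspa1a* was no longer higher in B6 than in DTR (log2 −0.14).

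**Figure D5:**
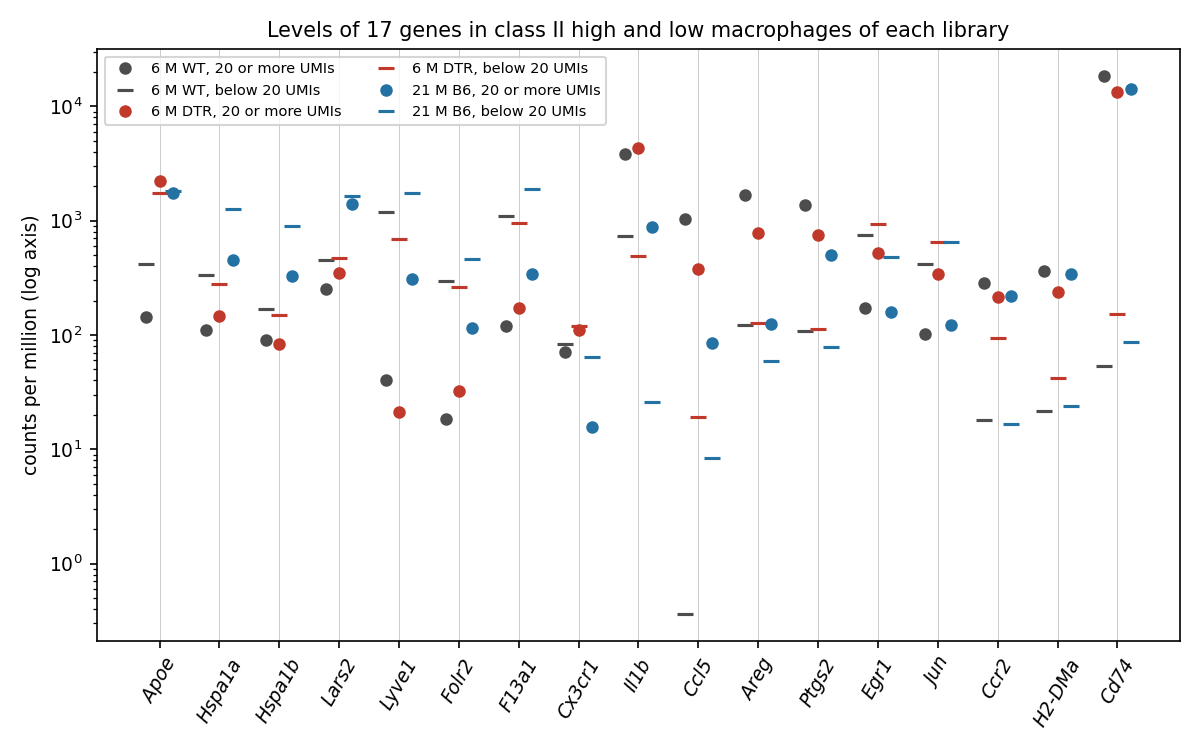
Levels of 17 genes (y axis, CPM, log axis) in class II high (circles) and class II low (dashes) macrophages of each library. *Apoe* is lowest in WT in both classes, *Il1b* lowest in B6 in both classes, and *Cd74* lies between 13373 and 18373 CPM in class II high cells.

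Most class II high cells also held UMIs of genes listed for other leukocytes, whose part in the levels above was not tested beyond leaving such cells out. At least 2 UMIs of the dendritic, B, T and NK cell lists together were found in 13 of 17, 82 of 99 and 29 of 39 class II high cells. *Il7r*, *Ighm*, *Cd2*, *Clec10a* and *Ccl17* were each held by over 20% of the class II high cells of a library. Without all such cells 4, 17 and 10 class II high macrophages remained, 1.27%, 3.50% and 4.33% of macrophages, with WT the lowest. In these 4 cells of WT *Il1b* and *Areg* were lower than in class II low cells (log2 −0.38 and −1.48), and in the 17 of DTR *Cxcl3* and *Isg15* were (log2 −1.85 and −0.75). *Ptgs2* and *Csf1r* in WT, *Cd40* in DTR and *Cxcl1* in B6 turned as well, as given beside each. Of 214 ratios past 2-fold 128 were still past it in the cells that remained. When those 5 genes were taken off the lists, *Il1b*, *Areg*, *Cxcl3* and *Isg15* were again higher in each library, *Il1b* by 2.19, 2.52 and 5.47 (log2). The 5 genes were chosen because class II high cells held them, so this setting brings such cells back. It cannot show from which cells the transcripts came, and that was not tested.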

How the data were processed

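The authors deposited 1 table of raw UMI counts per gene and barcode for each library, made with Cell Ranger (version 6.0.1 per the file headers, 2.1.1 in the submitters' processing notes). The genome build was not given in the sources used here. Counts were summed over the cells of a class, scaled to CPM and compared as ratios with exact 95% intervals. A sum of 0 was replaced by 3 UMIs as a bound. No test was made, since each group had 1 library. Any gene of the lists could be named, and beside these the 10 highest and 10 lowest genes of each comparison with at least 50 CPM in either class. For class II high against low these were ranked by the smallest ratio over the 3 libraries. Genes of the rule and mitochondrial genes were left out of the ranks, and lists were counted at 5 CPM and 1.5-fold. The members and the 35 lists (376 genes, of which 3 were not in the tables) were chosen with earlier results of these data known. Some genes of the lists are not reported here. To compare shares of cells, cells were thinned to 5000 UMIs. Scrublet marked 1, 6 and 1 doublets, under 0.5% of cells, and had not worked, so no cell was removed. On simulated data with 200 genes altered 4-fold, 99% were recovered among 3062 genes for class II high against low in 6 M WT. The simulated sums held counting error only and no spread between cells. The 99% therefore does not speak for ratios that rest on few cells. Python 3.11.15, scanpy 1.11.5, scipy 1.17.1 and edgeR 4.0.16 (TMM) were used.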

Additional observations from a re-analysis of the deposited data

Results flagged for a closer look

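Cells outside the filter on genes and mitochondrial UMIs also met the rule for class II high macrophages, 7 in 6 M DTR and 8 in 21 M B6 against 0 in 6 M WT, and entered no comparison. In 6 M DTR 5 of them held over 5000 genes and 2 had over 10% mitochondrial UMIs, and in 21 M B6 these numbers were 4 and 4. *Timd4*, a receptor for dying cells, was higher in class II high than in low macrophages of 6 M WT (log2 1.48) and 6 M DTR (log2 2.755). It was lower in class II high macrophages of 21 M B6 (log2 −2.59). Its UMIs came from 4, 3 and 4 class II high cells, and the difference was not tested.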

How the results depend on the processing

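Of the named genes' ratios 214 were past 2-fold, and of 2996 values recomputed under other settings 2949 kept their direction, 47 did not and 2760 were still past 2-fold. Some settings changed little, and the loss was greatest without cells holding other cell types' UMIs, where 128 of 214 were still past 2-fold and 18 turned. Leaving out the top doublet scores, leading cells, haemoglobin-rich cells and cells with narrower markers were settings chosen after seeing the data. The cause of the shifts below was not tested, and few cells remained in many of these settings.
The class II high share of macrophages was 1.27%, 3.50% and 4.33% in the libraries in turn, 6 M WT first, without cells holding other cell types' UMIs (4, 17 and 10 cells). It was 11.7% in 6 M DTR among cells called female, 12.5% at a threshold of 10 UMIs and 7.44% at 40, and in 21 M B6 12.2% under a mitochondrial limit of 5% and 3.79% among cells called male.
Counts of genes past 2-fold, higher and lower, were 65 and 66 for class II high against low, 121 and 54 for 6 M DTR against 6 M WT, 183 and 178 for 21 M B6 against 6 M WT, and 101 and 132 for 21 M B6 against 6 M DTR. In that order they were 14 and 23, 604 and 579, 430 and 764, and 352 and 725 without cells holding other cell types' UMIs. They were 155 and 262, 1131 and 734, 1073 and 1100, and 693 and 1151 at 5 CPM, and 198 and 224, 1116 and 1033, 1048 and 1067, and 1095 and 1271 with no filter on low counts. Among cells called female the pairs for comparisons with 6 M WT were 206 and 153, and 283 and 270, and among those called male the last 3 pairs were 395 and 241, 787 and 481, and 437 and 451. With TMM 38 genes were lower in class II high cells, and without cells with narrower markers 41 were higher, with 90 lower in 6 M DTR than in 6 M WT.
Log2 ratios of class II high against low that turned were, without cells holding other cell types' UMIs, *Il1b* −0.38, *Ptgs2* −0.66, *Slco2b1* 0.050, *Csf1r* 0.026, *Areg* −1.48, *Cbr2* 1.57 and the macrophage list median 0.0025 in 6 M WT, *Cd40* −0.22, *Cxcl3* −1.85 and *Isg15* −0.75 in 6 M DTR, and *Cxcl1* −1.51, *Cxcl10* −0.67 and the monocyte list median −0.11 in 21 M B6. Among cells called female *Il10* was at −0.37 in 6 M WT, and among those called male *Ccl5* at −0.93 in 6 M DTR and *Aif1* at −0.22 in 6 M WT. *Hbb-bt* was at 0.052 in 6 M DTR without the top 5% of doublet scores. Without haemoglobin-rich cells *Hba-a1* was at 0.073 and 1.44, *Hba-a2* at 0.21 and 0.58 and *Hbb-bt* at 0.29 and 0.39 in 6 M DTR and 21 M B6, and without leading cells *Cxcl10* was at −0.16 in 21 M B6.
For 6 M DTR against 6 M WT, *Prg4* was at −0.34 with the threshold per 10000 UMIs, −0.61 without other cell types' UMIs, −0.21 in female cells, −0.013 without narrower markers and −0.13 without leading cells, and for 21 M B6 against 6 M DTR at 0.46, 0.62, 0.044, 0.32 and 0.29. Without other cell types' UMIs *Areg* was at 3.61 for 6 M DTR against 6 M WT. Against 6 M WT, 21 M B6 had *Il1b* at 0.60, *F13a1* at −1.09, *Ptgs2* at 2.29 and the costimulation median at 0.12, and against 6 M DTR *Ccl5* at 3.35 and medians of 0.00094 for cytokines, 0.73 for chemokines and 0.48 for growth factors. In female cells *Ccl17* was at −1.24 for 6 M DTR against 6 M WT and 1.22 for 21 M B6 against 6 M DTR, and without narrower markers at 2.58 for the latter. *Retnla* was at 1.15 in female cells and 0.87 without top doublet scores for 6 M DTR against 6 M WT, and at −3.42 for 21 M B6 against 6 M WT under the mitochondrial limit of 5%, where *Hspa1a* was at −0.14 for 21 M B6 against 6 M DTR. *Ccl6* was at 1.89 for 6 M DTR against 6 M WT in male cells, and *Mmp12* for 21 M B6 against 6 M DTR at 0.30 there and 0.23 with at least 20 *C1q* UMIs.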
